A study of Mus musculus with 38 samples.

Results

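Krueppel-like factors are transcription factors with 3 C2H2 zinc fingers that bind CACCC and GC-rich DNA, and 4 of them, Klf2, Klf4, Klf5 and Klf6, were taken here by gene symbol. Each of the 4 has 1 row among 35976 genes in a bulk RNA-seq table of time courses, among 37108 genes in a bulk table of factor sets, and among 20695 genes in a single-cell table. The study induced mouse embryonic fibroblasts (MEFs, E13.5) towards pluripotent or primitive endoderm (PrE) fates with retroviral factors, and none of the factor sets sequenced here held a Klf. JGES stands for Jdp2, Glis1, Esrrb and Sall4, JGE leaves out Sall4, and JGEO and JGESO add Oct4. JGES cells were measured at day 0 and at days 1, 3, 5 and 7 with BMP4 at 10 ng/ml (BMP4+) or without it (BMP4−), and the other factor sets at day 7 in both conditions.

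These cells were infected in serum medium and then moved to iCD3, with or without BMP4. This medium holds vitamin C, LIF, bFGF, CHIR99021, SGC0946, an LSD1 inhibitor and Y27632, so LIF was present in BMP4+ and BMP4− cells alike. Whether the day 0 library was taken before the change of medium is not given in the sources used here. A change against day 0 may therefore span the switch from serum to iCD3, and the part of the medium was not tested. In a separate experiment Sall4 was delivered as the only factor, without BMP4, either as SALL4 WT or as SALL4 delN12. The delN12 form lacks the first 12 residues, through which SALL4 recruits the NuRD corepressor complex, and cells of both forms were collected at days 1, 5, 9 and 11. ATAC-seq, which reads open chromatin, covered MEFs and these 8 SALL4 conditions. Cut&Tag, which maps a protein or histone mark on DNA, covered SALL4 and H3K27ac, a mark of active promoters and enhancers, at day 6 in both forms. The bulk libraries are of whole populations of infected primary fibroblasts, and the share of cells that received each factor is unknown. Every condition had 1 sample. Differences at a single day are therefore given without a test. The 2 time courses have 4 matched days in each arm, and their mean difference over days was tested with limma on log2(FPKM+1) with day as a block, an analysis added after the values were seen. Its p-values measure how far the difference varied among days, not among cultures. Bulk levels are FPKM, fragments scaled to gene length and library size, and a bulk change is the difference of log2(FPKM+1) between 2 libraries. A gene was tested where at least 1 of the 2 libraries gave it an FPKM of 1 or more, and was called higher or lower where that difference was at least 1 in size, which describes 2 libraries and not the spread between cultures.

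In embryonic stem cells Klf2, Klf4 and Klf5 work beside Oct4, Sox2, Nanog and Esrrb and can stand in for one another in keeping the naive state. LIF signals through STAT3 to Klf4, and Klf4 is a classical reprogramming factor. Klf5 also acts in trophectoderm and in the primitive endoderm decision of the blastocyst, Klf2 is a shear stress factor of endothelium, and Klf6 is induced early in many cell types by growth factors and stress.

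By the GENCODE vM21 annotation of mm10, Klf2 (ENSMUSG00000055148) lies at chr8:72319033-72321656 on the plus strand and Klf5 (ENSMUSG00000005148) at chr14:99298691-99315036 on the plus strand. Klf6 (ENSMUSG00000000078) lies at chr13:5861482-5870394 on the plus strand and Klf4 (ENSMUSG00000003032) at chr4:55527143-55532466 on the minus strand. The promoters are shown because all 4 gene starts had an ATAC peak within 2 kb in all 9 libraries, MEFs included, as had 52.2% of 21938 protein-coding genes. RefSeq promoters were given for 3 of the 4, Klf2, Klf4 and Klf6 (GRCm38.p6, the assembly of mm10). The 250 bases before the RefSeq start are printed 5′ to 3′ on the strand of the gene, and capitals mark the GC box, GGGCGG on either strand. They are chr8:72318812-72319061, chr4:55532476-55532725 and chr13:5861239-5861488.
Klf2 promoter: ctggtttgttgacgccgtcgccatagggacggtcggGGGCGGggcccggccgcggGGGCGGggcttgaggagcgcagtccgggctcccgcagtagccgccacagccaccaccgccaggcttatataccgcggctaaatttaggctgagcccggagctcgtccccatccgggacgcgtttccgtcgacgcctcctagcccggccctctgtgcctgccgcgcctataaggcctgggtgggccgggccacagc
Klf4 promoter: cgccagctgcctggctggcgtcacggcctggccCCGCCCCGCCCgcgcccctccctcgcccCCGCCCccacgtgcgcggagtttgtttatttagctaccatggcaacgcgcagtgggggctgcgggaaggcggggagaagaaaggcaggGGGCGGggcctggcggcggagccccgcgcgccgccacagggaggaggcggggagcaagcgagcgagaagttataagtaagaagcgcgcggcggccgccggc
Klf6 promoter: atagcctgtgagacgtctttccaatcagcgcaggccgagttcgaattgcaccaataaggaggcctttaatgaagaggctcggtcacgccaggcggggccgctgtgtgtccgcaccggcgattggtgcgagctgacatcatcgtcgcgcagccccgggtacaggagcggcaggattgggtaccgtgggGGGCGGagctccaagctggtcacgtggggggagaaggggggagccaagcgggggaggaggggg
The Klf2 promoter held 2 GC boxes in 71.2% GC, the Klf4 promoter 4 (a pair of which overlap) in 74% GC, and the Klf6 promoter 1 in 64.8% GC, beside a median of 52.4% GC over all promoters. A GC box occurred in 32.7% of 32851 promoters of this length. The Klf motif CCACNCCC, found in 15.9% of them, was in none of the 3 sequences on either strand. The octamer ATTTGCAT (1.6% of promoters), the ESRRB motif AAGGTCA (4.08%) and the AP-1 motif TGANTCA (6.75%) were also absent from these windows.

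The 4 genes covered very different ranges over the 17 libraries of the time courses. Klf2 ranged from 0.179 to 82.9 FPKM (median 4.99), Klf4 from 2.45 to 25.4 (median 10.1), Klf5 from 5.46 to 58.7 (median 14.0) and Klf6 from 7.35 to 36.6 (median 16.2). Klf2 was thus the member with the widest range, and its highest level was that of BMP4− JGES cells at day 7. The delivered genes gave a check of the labels that was partial. At day 0 of JGES, Sall4 stood at 650 FPKM, Jdp2 at 375 and Esrrb at 240, so that day 0 follows infection. Glis1 was at 1.13 FPKM or less in every library. The delivered Glis1 sequence may not map to the mouse gene, which was not tested, so this value does not tell whether Glis1 was delivered. Between 12030 and 14621 genes reached an FPKM of 1 per library. Read depth behind the FPKM values is unknown.

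JGES cells without BMP4 were followed first. Klf2, the member most restricted to naive cells, stood at 4.99 FPKM at day 0, then 0.18, 12.18, 37.62 and 82.87 at days 1, 3, 5 and 7. It fell at day 1 by 2.35 on the log2 scale and was higher than at day 0 from day 3 on, with a change of 3.81 at day 7. Klf4, the reprogramming factor, stood at 7.72 at day 0 and 5.76, 22.26, 10.14 and 25.41 after it. It was higher than at day 0 at day 3 (1.41) and day 7 (1.60) and not past the threshold at day 5 (0.35), so its course was not steady. Klf5 went from 13.99 at day 0 through 23.69, 32.01 and 42.81 to 58.65 FPKM, each day above the one before, with a change of 1.99 at day 7. Klf6 took the opposite course, from 36.63 at day 0 to 8.63, 10.74, 9.26 and 12.47, and was lower than at day 0 at all 4 days (-1.97, -1.68, -1.88 and -1.48). At day 7, 3 of the 4 were higher and 1 lower, while 32.5% of 15004 genes tested were called in either direction. The counts were 2 of 4 at day 1 beside 21.1% of genes, 4 of 4 at day 3 beside 26.9%, and 3 of 4 at day 5 beside 30.3%.

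With BMP4 the courses differed. Klf2 stood at 1.16, 12.38, 9.04 and 3.67 FPKM at days 1, 3, 5 and 7, so that it peaked at day 3 and ended below its day 0 level. Klf4 stood at 5.97, 4.34, 8.26 and 16.71 and was higher than at day 0 only at day 7 (1.02). Klf5 stood at 45.34, 41.72, 30.94 and 28.22, the reverse order of its BMP4− course, with its highest level at day 1. Klf6 stood at 10.70, 20.14, 18.64 and 22.63, and its fall against day 0 passed the threshold only at day 1 (-1.69). Against day 0, 3 of the 4 were called at day 1 beside 18.8% of genes, 2 at day 3 beside 23.7%, 1 at day 5 beside 24.7% and 1 at day 7 beside 27%.

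**Figure D1:**
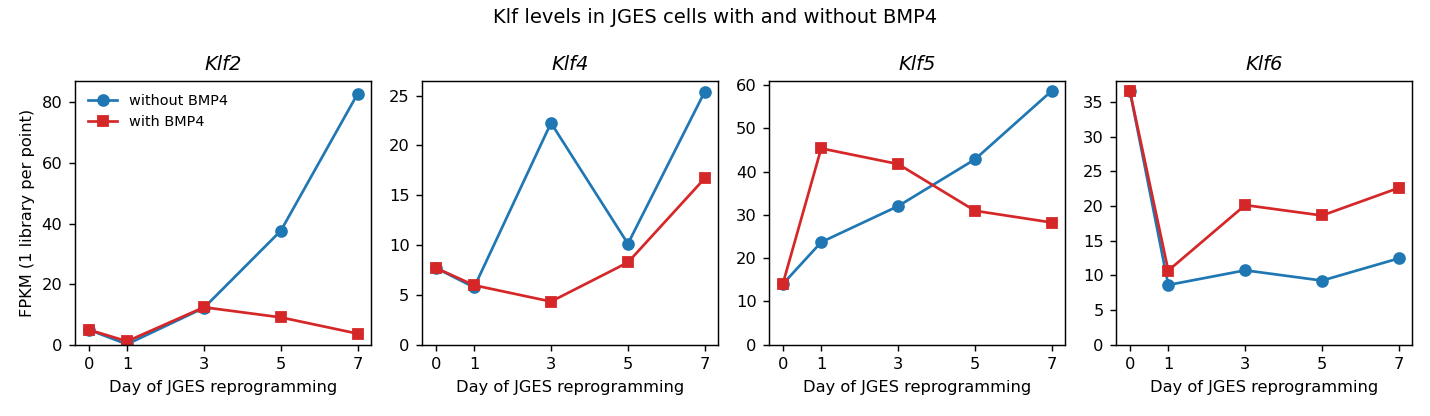
FPKM (linear axis) of Klf2, Klf4, Klf5 and Klf6 against the day of JGES reprogramming, 1 library per point, with lines for BMP4+ and BMP4− cells from the shared day 0 library. Klf2 separates from day 5 on and ends at 82.87 FPKM without and 3.67 with BMP4, while the lines of Klf5 cross and those of Klf6 stay higher with BMP4.

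The direct comparison of BMP4+ with BMP4− cells asks what the morphogen does to each gene on a given day. Klf2 showed the largest difference of the 4, at day 7 (82.87 without and 3.67 FPKM with BMP4). It differed by 0.87 at day 1 and 0.02 at day 3, then was lower with BMP4 by 1.94 at day 5 and 4.17 at day 7. Klf4 was lower with BMP4 at day 3 (22.26 and 4.34 FPKM, -2.12) and did not pass the threshold at days 1, 5 and 7 (0.04, -0.27 and -0.58). Klf5 was above its BMP4− level at day 1 without passing the threshold (0.91) and lower with BMP4 at day 7 (-1.03). Klf6 stood higher with BMP4 on each of the 4 days (0.28, 0.85, 0.94 and 0.81), and none of these differences passed the threshold. The calls were 0 of 4 at day 1, where 9.48% of genes were called, and 1 of 4 at day 3 beside 15.8%. They were 1 of 4 at day 5 beside 22% and 2 of 4 at day 7 beside 24.1%. The call of Klf5 at day 7 was lost where libraries were scaled to a median difference of 0 (-0.91), and Klf2 at day 1 passed with a pseudocount of 0.1 in place of 1 (2.17). Over the 4 days together, limma called 0 of the 4 genes at an adjusted p under 0.05, beside 0.569% of 17047 genes (20.6% at an unadjusted p under 0.05). Klf6 had a mean difference of 0.72 (SE 0.17, adjusted p = 0.104 by limma) and was above its BMP4− level on 4 of 4 days. Klf2 stood at -1.30 (SE 0.75, adjusted p = 0.357 by limma), a mean over days on which its difference ran from 0.87 to -4.17.

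Genes of the same pathways are given beside them for day 7, when 10.3% of 15347 genes were higher and 13.8% lower with BMP4 and the median difference was -0.14. Of 14 genes of the naive pluripotency circuit tested, 12 were lower and 1 higher, with a median of -3.43. Pou5f1, which encodes Oct4, was listed at 229.7 FPKM without and 6.08 with BMP4, and Nanog at 60.5 and 1.82. Of 12 genes of the LIF and STAT3 pathway 2 were lower and none higher (median -0.03), namely the STAT3 targets Pim1 (58.1 and 8.58 FPKM) and Pim3 (35.9 and 14.9). Of 15 immediate early genes 4 were higher and none lower (median 0.78), among them Junb (29.0 and 93.1 FPKM) and Fos (4.73 and 13.2). Of 17 other KLF and SP genes 2 were higher and 2 lower (median -0.37), led by Sp6 (2.88 and 67.7 FPKM) and by Sp5, a Wnt target (44.5 and 4.68). Of 12 epithelial genes 7 were higher and 2 lower, Krt8 from 8.02 to 75.6 FPKM. All 6 fibroblast markers were higher with BMP4 and their summed level was 129 FPKM without and 1265 with it, while the summed PrE markers were 73.2 and 154, placenta markers 84.5 and 252, and pluripotent markers 949 and 42.4. At day 3, without and with BMP4, pluripotent markers summed to 151 and 23.2 FPKM, fibroblast to 244 and 578, placenta to 39.5 and 115. PrE markers were at 17.3 and 13.7 that day. The placenta list holds the keratins Krt8 and Krt18, so its sums need not come from placental cells. At day 5 pluripotent markers summed to 487 and 19.1, fibroblast to 117 and 821, and PrE markers to 34.8 and 27.5. The differences of Klf2, Klf4, Klf5 and Klf6 were 0.02, -2.12, 0.37 and 0.85 at day 3. At day 5 they were -1.94, -0.27, -0.46 and 0.94. The markers thus did not move with every Klf difference on each day, and their part in these was not tested. In bulk samples fewer cells of a type and less RNA per cell cannot be told apart.

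Over the same time, from day 0 to day 7 without BMP4, 22.2% of genes were higher and 10.4% lower. The naive circuit was higher for 13 of 14 genes, and 10 of 11 epithelial genes were higher, with Epcam listed at 0 at day 0 and at 40.1 FPKM at day 7. Of 15 immediate early genes 8 were lower and none higher (median -1.42), Egr1 from 137 to 8.31 FPKM and Junb from 239.99 to 28.99, which is the direction of Klf6. The 6 fibroblast markers were all lower at day 7 than at day 0, with a summed level of 1637 FPKM at day 0 and 129 at day 7.

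The factor sets ask which delivered genes a Klf level goes with. The JGES libraries here are those of the time course, while JGE, JGEO and JGESO appear in the factor-set table alone. Whether they were prepared together is not given in the sources used here, so in a step to or from JGES the factor and the preparation cannot be told apart. At day 7 without BMP4 Klf2 stood at 3.09 FPKM in JGE, 35.90 in JGEO, 67.26 in JGESO and 80.78 in JGES cells. With BMP4 the same sets gave 2.20, 43.40, 21.95 and 3.59 FPKM. Klf2 was thus near its lowest in JGE cells in both conditions, and in JGES cells with BMP4. Klf4 stood at 9.20, 26.40, 47.55 and 24.77 FPKM in JGE, JGEO, JGESO and JGES without BMP4, and at 9.59, 19.18, 31.77 and 16.34 with it. Its highest level was in BMP4− JGESO cells. Levels here are of the factor-set table, which was normalized apart from the time courses. Klf5 stood at 13.34, 20.25, 57.98 and 57.17 without and 13.49, 27.48, 41.76 and 27.60 with BMP4. Klf6 stood at 15.47, 7.26, 3.03 and 12.15 without and 11.44, 11.36, 8.08 and 22.13 with BMP4, so its lowest level was in BMP4− JGESO cells.

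Between sets the levels of the other delivered genes differed too. Without BMP4 Jdp2 stood at 1722, 1290, 320 and 228 FPKM in JGE, JGEO, JGESO and JGES cells, and Esrrb at 561, 384, 109 and 167. Pou5f1 stood at 1570 in JGEO and 370 in JGESO cells. With BMP4 Jdp2 stood at 1499, 1513, 541 and 254. In a step between sets the named factor and these levels cannot be told apart. JGES against JGE cells without BMP4, which differ by Sall4, had higher Klf2 (4.32), Klf4 (1.34) and Klf5 (2.02) and a Klf6 difference of -0.32, so 3 of 4 were called beside 37% of 16066 genes. JGEO against JGE cells, which differ by Oct4, had higher Klf2 (3.17) and Klf4 (1.42), 2 of 4 beside 22.1%, with 0.57 for Klf5 and -0.99 for Klf6. JGESO against JGEO cells, which differ by Sall4, had higher Klf5 (1.47) and lower Klf6 (-1.03), 2 of 4 beside 28.2%. With libraries scaled to a median difference of 0, Klf6 was no longer called (-0.87) while Klf2 (1.10) and Klf4 (1.03) were. JGESO against JGES cells, which differ by Oct4, showed lower Klf6 (-1.70) as the 1 call of 4 beside 49.5%. With BMP4 the step from JGE to JGES called 0 of 4 beside 23.2% (0.52, 0.71, 0.98 and 0.90 in gene order), and the step from JGEO to JGESO called 0 of 4 beside 29%. The step from JGE to JGEO called Klf2 alone (3.80), 1 of 4 beside 11.8%, and the step from JGES to JGESO called Klf2 higher (2.32) and Klf6 lower (-1.35), 2 of 4 beside 38.9%. For the step from JGE to JGES without BMP4, where 20.1% of genes were higher and 16.9% lower, 13 of 14 naive circuit genes were higher and 1 lower. Of 15 immediate early genes 6 were lower and none higher there, and 6 of 17 other KLF and SP genes were higher and none lower. Macrophage markers were lower for 6 of 6 genes in that step, with summed levels of 175 FPKM in JGE and 5.47 in JGES cells, and Csf1r, C1qa, C1qb and Adgre1 listed at 0 in the latter. In this table they summed to 52.4 without and 111 FPKM with BMP4 in JGESO cells, which also received Sall4. In the time course table, normalized apart, they summed to 3.41 to 11.3 FPKM over all 9 JGES libraries, day 0 included. Fibroblast markers were lower for 6 of 6. In the step from JGE to JGEO without BMP4 pluripotent markers went from 14.1 to 333 FPKM in sum and macrophage markers from 175 to 92.7. From JGES to JGESO without BMP4 fibroblast markers went from 126 to 544 and PrE markers from 71.3 to 374. From JGEO to JGESO without BMP4 PrE markers went from 46.2 to 374, placenta markers from 32.1 to 265 and fibroblast markers from 819 to 544. The part of these cell types in the Klf differences was not tested.

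Within each set BMP4 went with different Klf values. In JGE cells the differences with BMP4 were -0.35, 0.05, 0.02 and -0.41 for Klf2, Klf4, Klf5 and Klf6, 0 of 4 called beside 9.06% of genes. In JGEO cells they were 0.27, -0.44, 0.42 and 0.58, 0 of 4 beside 4.21%. In JGESO cells Klf2 was lower (-1.57) and Klf6 higher (1.17), 2 of 4 beside 8.81%. Summed markers differed there too, from 544 without to 1001 FPKM with BMP4 for fibroblast, 265 to 470 for placenta and 460 to 278 for pluripotent markers. PrE markers went from 374 to 287 and macrophage markers from 52.4 to 111. The part of these markers was not tested. In the copy of the JGES day 7 libraries held in this table Klf2 (-4.16) and Klf5 (-1.02) were lower, 2 of 4 beside 23.9%. This copy is the same pair of libraries as in the time course, whose FPKM are a median of 0.975 and 0.978 times those there, and so is no replicate.

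**Figure D2:**
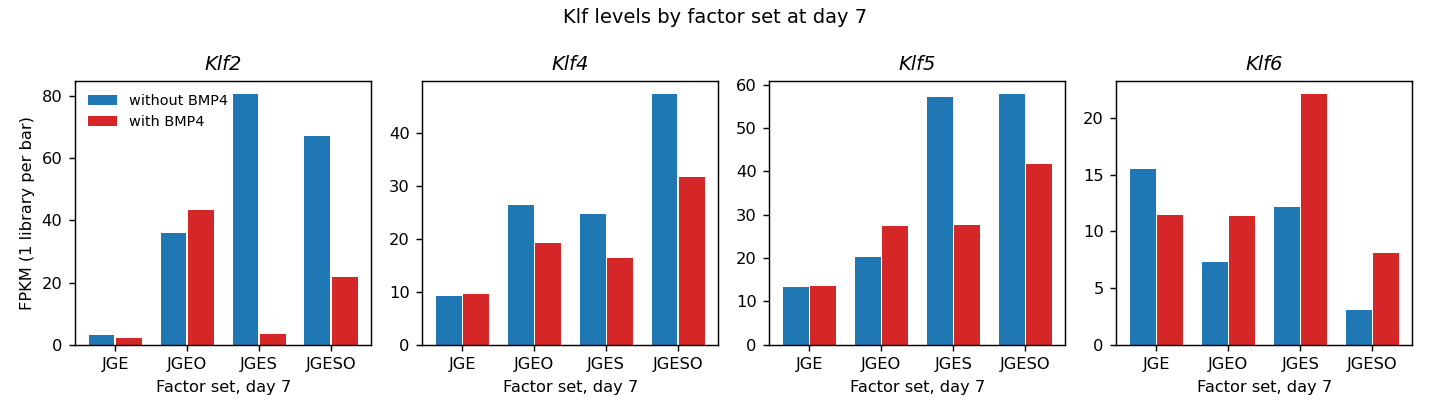
FPKM (linear axis) of the 4 genes at day 7 in JGE, JGEO, JGES and JGESO cells, 1 library per bar, with BMP4− cells in blue and BMP4+ cells in red. The BMP4− and BMP4+ bars of Klf2 differ in JGES (80.78 and 3.59) and JGESO (67.26 and 21.95) and are close in JGE (3.09 and 2.20).

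The SALL4 experiment compares the 2 forms of SALL4 given alone. Sall4 itself stood at 549, 491, 518 and 290 FPKM with WT at days 1, 5, 9 and 11, and at 809, 623, 971 and 428 with delN12. In the comparisons below the form of SALL4 and its level cannot be told apart. Klf4 and Klf6 were lower with delN12 at day 1 and not at day 11. Klf4 stood at 12.07, 12.75, 19.07 and 19.90 FPKM with WT at days 1, 5, 9 and 11, and at 3.64, 2.45, 8.08 and 17.52 with delN12. It was lower with delN12 at day 1 (-1.50), day 5 (-1.99) and day 9 (-1.14) and differed by -0.17 at day 11. Klf6 stood at 16.56, 16.18, 18.19 and 19.92 with WT and 7.35, 11.70, 12.17 and 23.89 with delN12, and was lower at day 1 (-1.07), with -0.44, -0.54 and 0.25 after that. Klf2 stood at 1.52, 5.74, 6.78 and 1.68 with WT and 1.40, 2.19, 3.05 and 5.71 with delN12. It was lower with delN12 at day 5 (-1.08) and higher at day 11 (1.32), and differed by -0.07 and -0.94 at days 1 and 9. Klf5 stood at 9.74, 8.58, 13.69 and 8.63 with WT and 5.46, 11.26, 10.20 and 8.25 with delN12, and passed the threshold at none of the 4 days (-0.73, 0.36, -0.39 and -0.06). Over the 4 days together Klf4 was lower with delN12 by a mean of -1.20 (SE 0.28, adjusted p = 0.048 by limma with day as a block), in the same direction on 4 of 4 days. This was 1 of 4 genes beside 11.9% of 14741. The call was lost without day 1, 5 or 9 (adjusted p = 0.0897, 0.178 and 0.182 by limma) and without the block (0.199). Klf6 had a mean of -0.45 (SE 0.21, adjusted p = 0.207 by limma).

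The calls between forms were 2 of 4 at day 1 beside 9.81% of genes, 2 of 4 at day 5 beside 9.86%, 1 of 4 at day 9 beside 11.8% and 1 of 4 at day 11 beside 13.1%. From day 1 to day 11 WT cells had no call among the 4 (0.09, 0.68, -0.16 and 0.25) beside 20.2% of genes. Over the same days delN12 cells had higher Klf2 (1.48), Klf4 (2.00) and Klf6 (1.58), 3 of 4 beside 15%, with 0.52 for Klf5. Before day 11, Klf2 with WT was higher than at day 1, at day 5 (1.42) and day 9 (1.62). With delN12 it differed by 0.41 and 0.75 at those 2 days. The Klf2 and Klf5 levels of all 8 SALL4 libraries lay below those of BMP4− JGES cells at days 3, 5 and 7.

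**Figure D3:**
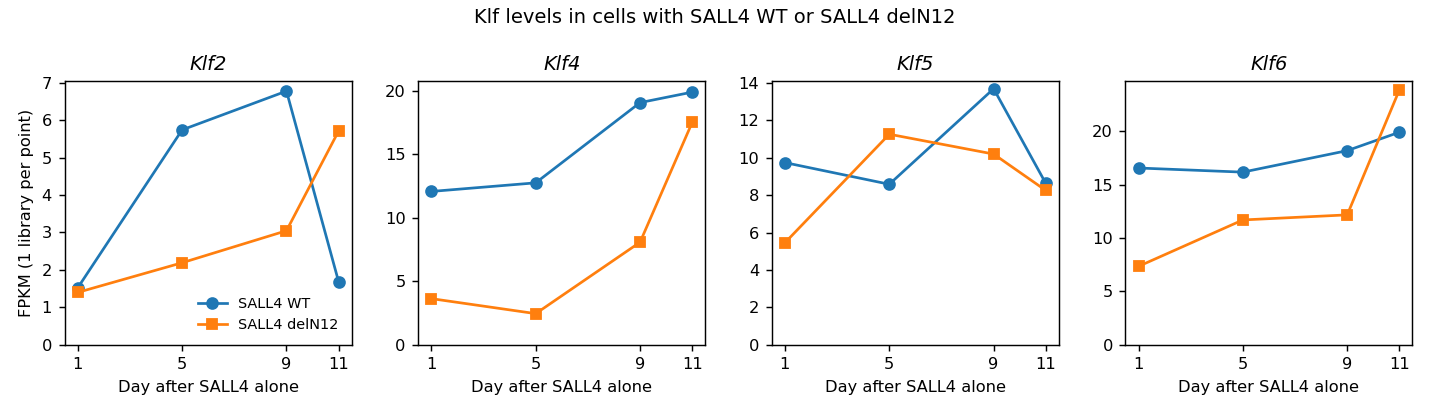
FPKM (linear axis) of the 4 genes against the day after SALL4 WT or SALL4 delN12 was delivered alone, 1 library per point. The delN12 points of Klf4 lie below the WT points at days 1, 5 and 9 and near them at day 11 (17.52 and 19.90).

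The shares of all genes called higher and lower with delN12 were 4.18% and 5.63% at day 1, 4.67% and 5.19% at day 5, 6.09% and 5.75% at day 9, and 6.55% and 6.58% at day 11. Epithelial genes were higher for 4 of 6 tested at day 1, 7 of 8 at day 5, 8 of 10 at day 9 and 9 of 11 at day 11, and none was lower. Krt8, a keratin of simple epithelia, stood at 11.3 FPKM with WT and 166 with delN12 at day 5. Immediate early genes were lower for 1 of 15 at day 1, 7 of 16 at day 5, 8 of 16 at day 9 and 3 of 16 at day 11, with 2, 2, 1 and 1 higher. Egr1, a serum response gene, stood at 58.4 and 12.3 FPKM at day 5, and Fos at 85.4 and 32.9. Of the other KLF and SP genes 2 of 13 were higher and none lower at day 5, Sp5 (0.57 and 8.45 FPKM) and Sp6 (7.29 and 21.7). Esrrb, a naive circuit gene that was not delivered here, stood at 1.85 and 21.0 FPKM at day 5. In the LIF and STAT3 list 1 gene was lower and 1 higher of 12 at day 5, Jak1 (66.3 and 24.1 FPKM) and Lif (2.70 and 7.59). Markers of other cells moved with the form too. Macrophage markers were higher with delN12 for 3 of 6 genes at day 1, 4 at day 5 and all 6 at days 9 and 11. Their summed level was 159 to 347 FPKM over the 4 WT libraries and 342 to 1008 over the 4 delN12 libraries, with none of the 6 at 0. The summed PrE markers were 16.2 to 24.2 with WT, and 15.1, 17.9, 60.9 and 171 with delN12 at days 1, 5, 9 and 11. Placenta markers, a list that holds Krt8 and Krt18, summed to 109 to 146 FPKM over the WT and 519 to 662 over the delN12 libraries. Fibroblast markers summed to 1260 and 2506 at day 1. Whether any of these cell types carries the Klf differences was not tested in the bulk libraries. Blood markers were at 10.2 to 23.5 FPKM in sum in all 8.

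Single-cell RNA-seq at day 7 placed the Klf transcripts in cell types, with 11335 BMP4+ and 8685 BMP4− JGES cells, 1 sample each. Cell types are those the authors deposited. The type labelled ParE is called PrE-like here, since its summed PrE markers were 1321 CPM with and 967 CPM without BMP4 and 9.9 to 97 CPM in the other types. CPM are counts of UMIs summed over the cells of a type and scaled to the UMI total of those cells. They are given with exact Poisson 95% intervals that cover counting error only. They are not divided by gene length, so they are compared within a gene. The types were made from these same counts, so differences between types are a description. A gene with at least 5 CPM on either side was called where the log2 ratio of CPM was at least 1 in size.

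Klf2 marked the pluripotent cells. It stood at 293 CPM (287 to 299) in the 1825 pluripotent cells, which were all from the BMP4− sample, and at 13.7 in intermediate, 13.2 in endothelial and 16.4 in PrE-like BMP4− cells. In BMP4+ cells it stood at 9.39 in intermediate, 9.07 in endothelial, 10.5 in placenta-like and 2.34 CPM (1.98 to 2.76) in PrE-like cells. PrE-like BMP4+ cells had its lowest level, while the other 3 BMP4+ types, and separately the 3 non-pluripotent BMP4− types, did not differ beyond counting error. Klf2 in intermediate BMP4− cells was 4.68% of the pluripotent level, while the 6 pluripotent markers were at 2.63% (Zfp42), 3.42% (Tdgf1), 4.14% (Dppa5a), 4.52% (Utf1), 5.73% (Nanog) and 35.6% (Sox2). In endothelial and PrE-like BMP4− cells Klf2 was at 4.50% and 5.60%. In endothelial cells the 6 markers ran from 3.01% (Tdgf1) to 13.3% (Sox2). In PrE-like cells Tdgf1 was at 3.75%, Nanog at 5.82%, Utf1 at 6.48% and Sox2 at 8.79%, with Zfp42 at 25.4 of 231 CPM and Dppa5a at 809 of 6305 CPM. The part of free RNA in these levels was not tested.

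Klf4 was highest in PrE-like cells, at 118 CPM (115 to 121) with and 76.2 (64.2 to 89.7) without BMP4. Next came placenta-like cells at 41.8 and pluripotent cells at 31.8 (29.8 to 33.9), the latter level not apart from intermediate BMP4+ cells at 30.6 (29.7 to 31.5). Endothelial BMP4+ cells held 16.1, and intermediate and endothelial BMP4− cells 7.47 and 8.55 CPM. Klf4 therefore did not follow Klf2. Klf5 was spread more evenly, from 162 CPM (145 to 182) in PrE-like BMP4− cells through 138 in placenta-like, 131 in pluripotent, 115 in endothelial BMP4+ and 97.4 in PrE-like BMP4+ cells. It stood at 65.1 in intermediate BMP4+ cells, and at 37.9 and 31.2 in endothelial and intermediate BMP4− cells. Klf6 stood at 109 CPM (106 to 112) in PrE-like, 93.4 in placenta-like, 62.0 in intermediate and 55.3 in endothelial BMP4+ cells. In BMP4− cells it stood at 79.4 in PrE-like, 27.2 in endothelial, 24.9 in intermediate and 19.7 CPM (18.1 to 21.3) in pluripotent cells, its lowest level.

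**Figure D4:**
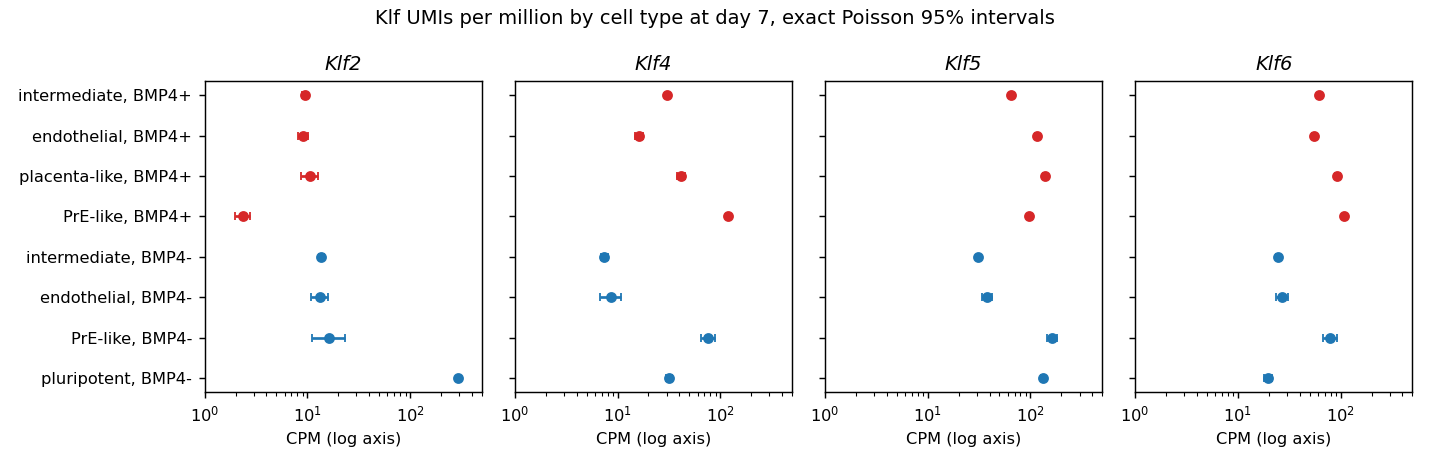
CPM (log axis) of the 4 genes by deposited cell type at day 7, with exact Poisson 95% intervals as bars, BMP4+ types in red and BMP4− types in blue. Klf2 stands apart in pluripotent cells (293 CPM), and Klf4 is highest in PrE-like cells (118 and 76.2 CPM).

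Against all other cells of the same sample, PrE-like BMP4+ cells had higher Klf4 (2.03, or 4.09-fold) and lower Klf2 (-2.00), with 0.32 for Klf5 and 0.80 for Klf6, 2 of 4 called beside 24.4% of 10320 genes. Pluripotent cells had higher Klf2 (4.42, or 21.3-fold), Klf4 (1.83) and Klf5 (1.93), with -0.41 for Klf6, 3 of 4 beside 26.2%. The 142 PrE-like BMP4− cells had higher Klf4 (2.50), Klf5 (1.53) and Klf6 (1.74) and lower Klf2 (-2.32), 4 of 4 beside 20.1%. In pluripotent cells 11 of 13 naive circuit genes were higher and 9 of 12 immediate early genes lower against the other BMP4− cells. In PrE-like BMP4+ cells 6 of 13 immediate early genes were lower and 1 higher, while Klf6 had its highest level there. The other KLF and SP genes in PrE-like BMP4+ cells were higher for 2 of 13 and lower for 4, led by Klf8 (1.61 CPM in other cells and 18.2 in PrE-like cells) and by Sp7 (5.69 and 0.72). Placenta markers summed to 2864 CPM in placenta-like and 918 in PrE-like BMP4+ cells, and macrophage markers to at most 79.1 CPM in any type. The placenta list holds the keratins Krt8 and Krt18, at 359 and 538 of the 918 CPM, so this sum is mostly of 2 epithelial genes.

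Within a type, BMP4+ was compared with BMP4− where both samples held it. Over all genes the median ratio was between 0.50 and 0.58, above 0, with medians of 21205 UMIs per cell in BMP4+ and 12738 in BMP4− cells, so each ratio is read against that shift. In intermediate cells Klf4 (2.03), Klf5 (1.06) and Klf6 (1.32) were higher with BMP4 and Klf2 stood at -0.55, 3 of 4 beside 34.8% of genes. Less the median of 0.51, Klf4 kept its call, Klf5 (0.55) and Klf6 (0.80) did not, and Klf2 was called lower (-1.06). In endothelial cells Klf5 (1.61) and Klf6 (1.02) were higher, 2 of 4 beside 29.3%, with -0.54 for Klf2 and 0.92 for Klf4. The call of Klf6 there was lost less the median (0.52) and with types taken from markers (0.72), and less the median Klf2 was called lower (-1.04). Markers moved in these cells too, from 246 CPM without to 560 with BMP4 for endothelial, 17.2 to 79.1 for macrophage and 306 to 4.15 for pluripotent markers. Dppa5a alone was 253 of the 306 CPM and 0.37 of the 4.15. By the marker rule 83 of 507 BMP4− and 706 of 1453 BMP4+ cells of this label counted as endothelial. In PrE-like cells Klf2 was lower (-2.81), 1 of 4 beside 31%, with 0.63 for Klf4, -0.74 for Klf5 and 0.46 for Klf6. Less the median of 0.52, Klf4 stood at 0.11 and Klf6 at -0.07, so that its sign turned, and Klf5 was called lower (-1.26). Pluripotent markers summed to 876 CPM in BMP4− and 23.0 in BMP4+ PrE-like cells, in the direction of Klf2. Dppa5a alone was 809 and 16.6 CPM of these sums, and 5 of 5 pluripotent markers tested were lower with BMP4. Placenta markers went from 470 CPM without to 918 with BMP4 in PrE-like cells, and fibroblast markers from 50.3 to 142. Of these placenta sums Krt8 and Krt18 were 106 and 351 CPM without and 359 and 538 with BMP4. Of 14 immediate early genes tested in PrE-like cells, 6 were higher and 1 lower with BMP4. Summed immediate early genes stood at 1554 CPM in BMP4+ and 664 in BMP4− intermediate cells, in the same direction as Klf4, Klf5 and Klf6. In intermediate cells fibroblast markers went from 215 CPM without to 1344 with BMP4, placenta markers from 146 to 496 and pluripotent markers from 363 to 19.7. Of these placenta sums Krt8 and Krt18 were 17.3 and 114 CPM without and 93.2 and 348 with BMP4. Dppa5a was 261 of the 363 CPM and 4.48 of the 19.7. By the marker rule 618 BMP4− and 9 BMP4+ intermediate cells counted as pluripotent. A Dppa5a UMI was in 94.0% of BMP4− and 1.19% of BMP4+ intermediate cells, without thinning. The part of these markers in the Klf values of the 3 types was not tested.

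Over all cells of a sample Klf2 stood at 7.79 CPM with and 80.9 without BMP4 (-3.38), Klf4 at 49.1 and 14.5 (1.76), Klf5 at 82.2 and 57.7 (0.51) and Klf6 at 73.2 and 24.6 (1.57). Of the 4, 3 were called beside 35.3% of genes. Less the median over all genes of 0.58, Klf4 stood at 1.18, Klf6 at 0.99 and Klf5 at -0.07. The bulk libraries of the same day gave -4.17 for Klf2, -0.58 for Klf4, -1.03 for Klf5 and 0.81 for Klf6 on the log2(FPKM+1) scale. The 2 assays had the same direction for Klf2 and Klf6 and opposite ones for Klf4, whose bulk difference did not pass the threshold. For Klf5 the direction in scRNA-seq turned with the median and was past the threshold in neither form.

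The share of cells with at least 1 UMI depends on depth, so each cell was thinned to 4000 UMIs, below the depth of all 20020 cells. After thinning 60.5% (58.3 to 62.8) of pluripotent cells had a Klf2 UMI, against 5.46% of intermediate BMP4− cells and 0.80% of PrE-like BMP4+ cells. Without thinning these shares were 91.0%, 14.9% and 4.26%. A Klf4 UMI was in 35.0% (33.1 to 37.0) of PrE-like BMP4+ cells, 11.7% of pluripotent cells and 2.50% of intermediate BMP4− cells. Intervals of shares are exact (Clopper-Pearson) at 95%. A Klf5 UMI was in 45.1% (36.7 to 53.6) of PrE-like BMP4− cells, 38.2% of pluripotent cells and 28.6% of PrE-like BMP4+ cells. A Klf6 UMI was in 32.2% (30.3 to 34.1) of PrE-like BMP4+ cells and 7.62% (6.44 to 8.93) of pluripotent cells. At this depth none of the 4 genes was found in 20.4% of pluripotent, 32.3% of PrE-like BMP4+ and 76.0% of intermediate BMP4− cells. The 2 samples shared 2 cell barcodes.

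Chromatin at the 4 loci was read from the deposited peak lists, in which the score is -10 log10 of the MACS p-value and the lowest score is 50. A score rises with read depth as well as with enrichment, and depth is unknown. The promoter ATAC scores ranged over the 9 libraries from 481 to 2053 at Klf2, 128 to 610 at Klf4, 493 to 1906 at Klf5 and 393 to 1385 at Klf6. MEFs gave the highest score at all 4, in a list that also had the most peaks (125454 beside 78491 to 98394). Promoter accessibility therefore gave no split between WT and delN12 by presence of a peak.

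SALL4 peaks lay at the promoters of Klf2 (score 169 with WT and 102 with delN12), Klf4 (166 and 269) and Klf5 (174 and 105) in both forms, as at 35.3% of protein-coding genes. At Klf6 a SALL4 peak 1.9 kb after the start (64.0) was called with delN12 and not WT, as at 3.21% of genes. H3K27ac peaks lay at the promoters of Klf2 (198 and 397), Klf4 (224 and 383) and Klf5 (171 and 265) in both forms, as at 46.3% of genes. Klf6 had none within 2 kb in either form, as had 42% of genes. The score was higher with delN12 at all 3 promoters, but the delN12 list of H3K27ac held 45585 peaks and the WT list 19829, and the median ratio of scores over 15907 shared sites was 2.03.

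Peaks of all lists were merged, and 71 of 134723 sites had one of the 4 genes as the nearest start within 100 kb. Klf2 had 8 of them, Klf4 20, Klf5 24 and Klf6 19. Distances below are from the gene start to the site, positive in the direction of transcription. Of 61 sites with an ATAC peak 16 had one in all 9 libraries, beside 18.6% of all sites with an ATAC peak, and 8 of these were of Klf6. SALL4 peaks were in both forms at 21 of 52 sites with SALL4 (37.3% of all such sites), in WT alone at 18 (36.4%) and in delN12 alone at 13 (26.3%). H3K27ac was in both forms at 10 of 20 sites (41.6%), in delN12 alone at 8 (53.6%) and in WT alone at 2 (4.81%). At the 10 shared sites the score was higher with delN12 at 9 (93.9% of all shared sites) and at least 2 times higher at 5 (51.7%). The split of SALL4 between forms at the Klf sites was therefore close to that of all sites.

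Klf6 had a row of distal sites that were open in MEFs and at all days of both forms. At -58.1 kb SALL4 scored 509 with WT and 519 with delN12, and H3K27ac 214 and 610. At -24.1 kb SALL4 scored 460 and 469, and H3K27ac 143 and 548. At -16.4 kb SALL4 scored 308 and 504, and H3K27ac 140 and 485. At 31.3 kb SALL4 scored 374 and 423, and H3K27ac 54.9 and 196. The H3K27ac ratios at these 4 sites were 2.85, 3.82, 3.47 and 3.57, beside the median of 2.03 over all shared sites. Klf6 RNA at the nearest days, 5 and 9, was not higher with delN12 (-0.44 and -0.54). At Klf5, the site at 26.1 kb scored 307 and 140 for SALL4 and 173 and 228 for H3K27ac, and the site at 84.6 kb had H3K27ac with delN12 alone (140). At Klf2, a site at 12.2 kb had H3K27ac with WT alone (72.4).

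A few sites had ATAC peaks at 3 or 4 days of 1 form and none of the other, and shares are given over the 124790 merged sites with an ATAC peak. At Klf4, in the merged site centred at 54.1 kb, ATAC peaks were called at all 4 WT days (81.5, 236, 108 and 106) and at no delN12 day nor in MEFs, with a SALL4 peak with WT alone (87.0). This was 1 site of 61, beside 2.1% with this pattern outside MEFs and 3.2% with or without a MEF peak. At 7.1 kb ATAC peaks were called with delN12 at days 1, 9 and 11 (118, 80.1 and 79.8) and with WT at no day, and SALL4 scored 86.0 with WT and 326 with delN12. Of those sites 1.29% had this pattern outside MEFs, and 2.51% with or without a MEF peak. The Klf5 site at -92.9 kb, open in MEFs, had it too (82.0, 60.1 and 58.3 at days 1, 5 and 9), so 2 of 61 did. These counts are near the shares of all such sites. At 43.1 kb SALL4 scored 471 with WT and 184 with delN12. At -46.7 kb it scored 59.1 and 387, and at -9.6 kb 206 and 402. An absent peak says only that the score of 50 was not reached.

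**Figure D5:**
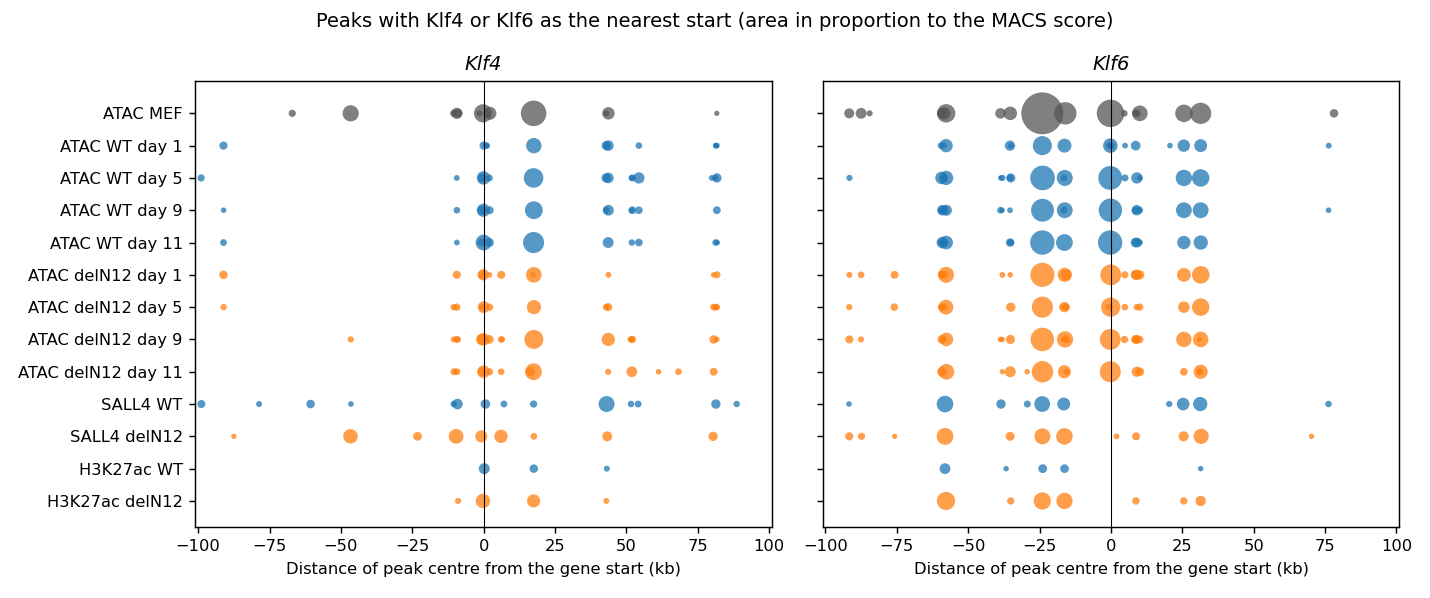
Peaks with Klf4 or Klf6 as the nearest start, by distance of the peak centre from the gene start (kb, positive in the direction of transcription), 1 row per peak list and dot area in proportion to the MACS score. Of the ATAC rows only the 4 WT rows of Klf4 have a dot at 54.4 kb, inside the merged site centred at 54.1 kb, and the H3K27ac delN12 row of Klf6 has larger dots than the WT row.

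These 2 Klf4 sites are printed because their ATAC peaks were called in only 1 form. The sequences are from the plus strand of GRCm38.p6. The WT site is the central 300 bases of the day 5 WT peak, chr4:55477954-55478253, 54.4 kb from the start, and the delN12 site is the day 1 delN12 peak, chr4:55526147-55526439, 6.2 kb from the start and past the 3′ end of the gene. Capitals mark the AP-1 motif TGANTCA.
Klf4 +54.4 kb: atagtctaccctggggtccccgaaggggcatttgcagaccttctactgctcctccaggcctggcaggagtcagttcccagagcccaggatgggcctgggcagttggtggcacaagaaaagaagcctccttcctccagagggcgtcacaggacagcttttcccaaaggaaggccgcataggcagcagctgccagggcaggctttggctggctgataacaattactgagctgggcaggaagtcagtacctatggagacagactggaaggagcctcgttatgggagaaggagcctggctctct
Klf4 +6.2 kb: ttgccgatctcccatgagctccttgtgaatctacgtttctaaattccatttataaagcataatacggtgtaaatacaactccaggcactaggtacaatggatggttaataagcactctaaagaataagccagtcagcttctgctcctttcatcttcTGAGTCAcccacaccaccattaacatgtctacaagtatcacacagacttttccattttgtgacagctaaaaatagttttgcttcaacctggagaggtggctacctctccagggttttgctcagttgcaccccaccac
The delN12 site held 1 AP-1 match at bases 157 to 163 in 42.7% GC, and no Klf motif, GC box, octamer or ESRRB motif. The WT site, in 58% GC, held none of the 5 motifs. An AP-1 match was in 26.4% of 5596 WT and 24.8% of 4904 delN12 day 11 peaks of chromosome 4, by their central 300 bases. A Klf motif was in 14.5% and 14.9% of them and a GC box in 22.4% and 25.4%. The AP-1 and ESRRB letters were chosen after these sequences had been read.

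The genes with the most similar course over the 17 libraries were found by Pearson's r of log2(FPKM+1) among 12350 genes, as a description. For Klf2 these were Dppa2, a gene of early embryos and pluripotent cells (r = 0.92), Zfp229 (0.89) and Adat1 (0.89). For Klf5 they were Pdxp (0.97), Sdad1 (0.96) and Gnl3l (0.95), and for Klf6 Rnd3 (0.88), Dnm3os (0.86) and Crim1 (0.84). Klf4 had no gene as close, with Mpnd (0.75), Cat (0.74) and Cds2 (0.73) first. Among the 4 themselves r was 0.56 for Klf2 and Klf5, 0.44 for Klf2 and Klf4, 0.30 for Klf4 and Klf6, 0.12 for Klf4 and Klf5, 0.07 for Klf2 and Klf6 and -0.13 for Klf5 and Klf6. The 17 points include courses of the same cultures and are not independent.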

How the data were processed

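The authors trimmed bulk reads (Trim Galore 0.6.4), mapped them to mm10 (HISAT2 2.2.1) and deposited FPKM values from StringTie 2.2.1 in tables of 17 and 8 libraries. The second copy of the JGES day 7 libraries was matched to them by column names. For scRNA-seq the authors used STARsolo and deposited UMI counts per cell with cell types. The other 10749 columns of that table, cells of other work, were not used. Peaks were deposited by the authors with a MACS 1.4.2 score, after Bowtie2 2.4.5 and SAMtools 1.16.1, and Cut&Tag replicates had been merged.

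Here FPKM were compared as log2(FPKM+1) within a table, a call being 1 or more with an FPKM of 1 in either library. Differences over the 4 matched days of a time course were tested with limma 3.58.1 (R 4.3.3, day as a block, Benjamini-Hochberg adjustment over all genes with an FPKM of 1 in any of the 8 libraries). Counts were summed per cell type to CPM (5 CPM or more in either, 0.5 counts added). Peaks overlapping by 1 bp were merged and assigned to the nearest protein-coding start within 100 kb, and a promoter is 2 kb to each side. Python 3.11.15, pandas 2.3.3, NumPy 2.4.6 and SciPy 1.17.1 were used, and scripts were tested on simulated data. Named genes are the 4 members, at most 4 examples of a list by size of difference, and the 3 closest genes by r. The delivered genes, the 6 pluripotent markers and the macrophage markers listed at 0 are named outside this rule, chosen after their values were seen. The members and lists were chosen with earlier results of these data known. Alternatives were other pseudocounts, filters, scalings, thinning depths, cell types and peak thresholds. Doublets were not called, and the 6% of cells with the most UMIs were left out in an alternative.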

Additional observations from a re-analysis of the deposited data

Results flagged for a closer look

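These pairs of differences had opposite signs under the same contrast and lay at least 1 apart on the log2 scale, with 1 library per condition, and the difference between them was not tested. Only the Klf2 pair for delN12 against WT had both values past the threshold in the main setting. In the other pairs at least 1 value was below it, some of them near 0. With BMP4 in JGES cells Klf2 stood at 0.87 at day 1 and -4.17 at day 7, Klf4 at 0.045 at day 1 and -2.12 at day 3, and Klf5 at 0.91 at day 1 and -1.03 at day 7. With BMP4 in the factor sets Klf2 stood at 0.27 in JGEO and -4.16 in JGES, Klf5 at 0.42 in JGEO and -1.02 in JGES, and Klf6 at -0.41 in JGE and 1.17 in JGESO.

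For delN12 against WT, Klf2 stood at -1.08 at day 5 and 1.32 at day 11, Klf5 at -0.73 at day 1 and 0.36 at day 5, and Klf6 at -1.07 at day 1 and 0.25 at day 11. In scRNA-seq the log2 ratio of Klf5 with against without BMP4 was 1.61 in endothelial and -0.74 in PrE-like cells.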

How the results depend on the processing

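Every condition had 1 sample, so replicate numbers pair nothing, and libraries of the time courses were paired by day. Of the single-day, cell type and peak values under alternatives, 323 were kept, 4 below the threshold turned sign, 17 passed it, 7 no longer did, and 14 others moved. A difference was kept where its direction and side of the threshold held. The 323 also include peak counts and 25 counts of genes called. These have no direction and were kept where they stayed within a fixed fold. No called value changed sign.

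The limma fits over days were added after seeing the data. Without the day block the genes called were 56 of 17047 for BMP4 in JGES (97 with it) and 698 of 14741 for delN12 (1752 with it). With 1 day left out they were 0 to 24 and 190 to 2558, with 1630 genes or more at an unadjusted p under 0.05 each time. The mean of Klf4 in delN12, -1.20 with the block and, no longer called, without it, was -1.36 with a pseudocount of 0.1 and no longer called (adjusted p = 0.0502), and -1.54 to -0.94 with 1 day left out. Klf2 there ran from -0.70 to 0.10. Klf5 with BMP4 ran from -0.37 to 0.27, and was 0.047 with libraries scaled to a median of 0.

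With a pseudocount of 0.1 these passed the threshold: Klf2 with BMP4 in JGES at day 1 (2.17), Klf6 there at day 5 (1.00), Klf5 in BMP4+ JGES from day 0 to day 7 (1.01), Klf6 in JGEO against JGE without BMP4 (-1.08), Klf5 with BMP4 in JGES (1.03) and JGEO (1.02) against JGE, and Klf2 in delN12 against WT at day 9 (-1.13). With libraries scaled to a median difference of 0, Klf5 with BMP4 in JGES at day 7 (-0.91) and Klf6 in JGESO against JGEO without BMP4 (-0.87) no longer passed. Klf6 in JGES at day 5 (1.10), Klf2 (1.10) and Klf4 (1.03) in JGESO against JGEO, Klf6 in JGEO against JGE (-1.06), and Klf5 in JGES against JGE with BMP4 (1.07) did. With JGES from the other table the last was 1.01.

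The scRNA-seq ratios less the median over all genes were chosen after seeing the data. Klf6 over all cells (0.99), Klf5 (0.55) and Klf6 (0.80) in intermediate cells and Klf6 in endothelial cells (0.52) then no longer passed, and Klf2 in intermediate (-1.06) and endothelial (-1.04) cells and Klf5 in PrE-like cells (-1.26) did. Without the 6% of cells with the most UMIs Klf4 in endothelial cells passed (1.11), and with types from markers Klf6 in endothelial cells did not (0.72).

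Shares of cells moved with depth, for Klf2 in pluripotent cells and for Klf4, Klf5 and Klf6 in PrE-like BMP4+ cells, to 91.0%, 81.5%, 77.1% and 82.3% without thinning and 41.8%, 21.2%, 16.3% and 18.0% at 2000 UMIs. Peaks over all lists with Klf2, Klf4, Klf5 and Klf6 as the nearest start were 37, 144, 99 and 190. With a score of at least 100 they were 21, 72, 47 and 122, and within 50 kb Klf4 kept 95 and Klf5 58.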
